A study of Homo sapiens with 20 samples.

Results

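The comparison described here is that of high against low leucine at 120 min in THLE-3 cells. THLE-3 is a human cell line made from the liver epithelium of an adult by immortalisation with the SV40 large T antigen. Its members were chosen by their titles, as the arrays of cells kept 120 min in medium with 2.0 mM leucine (high) and those of cells kept 120 min with 0.1 mM leucine (low). That gave 4 of the 20 arrays of the series, 2 per leucine level, with 1 array of each level from a first and 1 from a second experiment, and all differences were taken within an experiment. The other 16 arrays hold the same 2 media at 0, 30, 60 and 480 min, again with 1 array per experiment. Total RNA was hybridised to Affymetrix human oligonucleotide arrays, whose probe sets each read 1 transcript or a few. All values come from 1 immortalised line, and the labels give neither the feeding of the cells before 0 min nor whether the experiments used separate cultures. The spread between these samples, which is all that the p-values measure, may be technical.

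Leucine is an essential amino acid. When an amino acid runs short, uncharged tRNA activates the kinase GCN2, which phosphorylates the initiation factor eIF2, slows general translation and favours translation of the transcription factor ATF4. ATF4 and its bZIP partners then turn on genes for amino acid transport, amino acid synthesis and tRNA charging, together with feedback and death genes such as DDIT3 (CHOP), TRIB3, CHAC1 and PMAIP1 (NOXA). Leucine also acts through the kinase mTORC1, which raises ATF4 when amino acids are plentiful.

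The mean intensity of the 4 arrays ran from 780.3 to 862.6 arbitrary units, and the arrays separated by experiment, with correlations over probe sets of at least 0.983 inside an experiment and at most 0.953 across experiments. Ranked by mean signal, KRT18 (a simple epithelial keratin) was at percentile 99.1 and VIM (the mesenchymal intermediate filament) at 99.2, while ALB, the albumin gene, was at 9.92 and the epithelial adhesion genes EPCAM and CDH1 at 10.8 and 7.31. Other markers of each kind ranged widely, from 22.0 for TF through 67.1 for APOA1 to 90.0 for CYP3A4 among hepatocyte genes, and from 1.19 for LUM through 52.0 for COL1A2 to 98.6 for SPARC among mesenchymal genes. Of 9 measured hepatocyte, 6 biliary, 12 stellate and 6 endothelial or blood marker genes 0 passed the test for leucine at 120 min. Of all 8280 genes only 3 (0.0362%) passed, so 0 in lists of this size says little about the markers. The medians of these lists were 0.01, 0.04, 0.04 and 0.02.

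At 120 min the transcription factor genes ATF4 and DDIT3, the death gene PMAIP1 and TXNIP, an inhibitor of thioredoxin and of glucose uptake, fell in high leucine. Of 13329 probe sets tested, 4 were called lower (0.0300%) and 0 higher (0%), at a Benjamini-Hochberg adjusted p under 0.05 in a limma fit of all 20 arrays with the experiment as a term. At an unadjusted p under 0.05 there were 601 probe sets, below the 666.45 that chance gives. With 1 probe set per gene, 3 of 8280 genes were called lower (0.0362%), since the brightest TXNIP probe set did not pass. Differences are log2 of high over low leucine on the scale of intensity plus 165.2, which understates the change of weak probe sets, and each ± is the standard error of that fit with n = 2 arrays per level.

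ATF4 intensity was 4980 in low and 3532 in high leucine in the first experiment, and 5565 and 3072 in the second. In RNA from whole cultures, fewer cells of a kind and less RNA per cell cannot be told apart. Both high-leucine arrays lay below both low-leucine arrays, by 29.1% and 44.8% within the experiments. The log2 difference was -0.49 and -0.72, and the mean of -0.61 ± 0.07 (95% interval -0.75 to -0.46) had a limma adjusted p of 0.0016. DDIT3, the transcription factor CHOP that ATF4 induces, went from 1390 to 836 in the first experiment and from 2018 to 971 in the second. The arrays of the 2 levels did not overlap, and the difference of -0.75 ± 0.10 (-0.61 and -0.88 by experiment, 95% interval -0.95 to -0.54) had an adjusted p of 0.0055 by limma. Among genes that were tested, 8.38% had both high-leucine arrays below both low-leucine arrays.

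PMAIP1 encodes NOXA, a BH3-only protein that neutralises MCL1. Its brighter probe set read 1838 in low and 1228 in high leucine in the first experiment and 2237 and 1224 in the second, without overlap. The difference was -0.61 ± 0.07 (-0.51 and -0.71 by experiment), with a limma adjusted p of 0.0016. A second probe set of the gene gave -0.61 and -0.88 at 120 min (adjusted p = 0.14), but it also stood at -0.36 and -0.74 at 0 min, where the brighter probe set gave -0.08 and 0.00. 1 of 3 TXNIP probe sets fell from 2444 to 1585 and from 1569 to 949, a difference of -0.55 and -0.58, with a mean of -0.56 ± 0.09 and an adjusted p of 0.024. Its levels overlapped across experiments, and the first experiment was brighter in both media. The other TXNIP probe sets gave -0.57 and -0.26 (adjusted p = 0.63) and -0.54 and -0.27 (adjusted p = 0.80), so they were lower in both experiments but did not pass the test.

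The calls depended on how the experiment entered the fit and on single arrays. Without the replicate block only PMAIP1 passed (1 probe set, 0.00750%; adjusted p = 0.045 for PMAIP1 and 1 for ATF4, DDIT3 and TXNIP), and with a block for each experiment and time 18 probe sets passed (0.135%), all lower. When the second experiment's low-leucine array at 120 min was left out, 0 probe sets passed, with adjusted p-values of 0.078 for ATF4 and PMAIP1, 0.15 for DDIT3 and 0.10 for TXNIP. Without the second high-leucine array 1 passed, and these genes had 0.060, 0.060, 0.16 and 0.54. Without the first low-leucine array 2 passed, with DDIT3 at 0.056 and TXNIP at 0.56, and without the first high-leucine array 9 passed, 5 of them lower. In these fits the lone array of a group is assumed to vary like the other groups. A permutation test on 2 against 2 arrays alone cannot go below a p of 0.333.

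**Figure D1:**
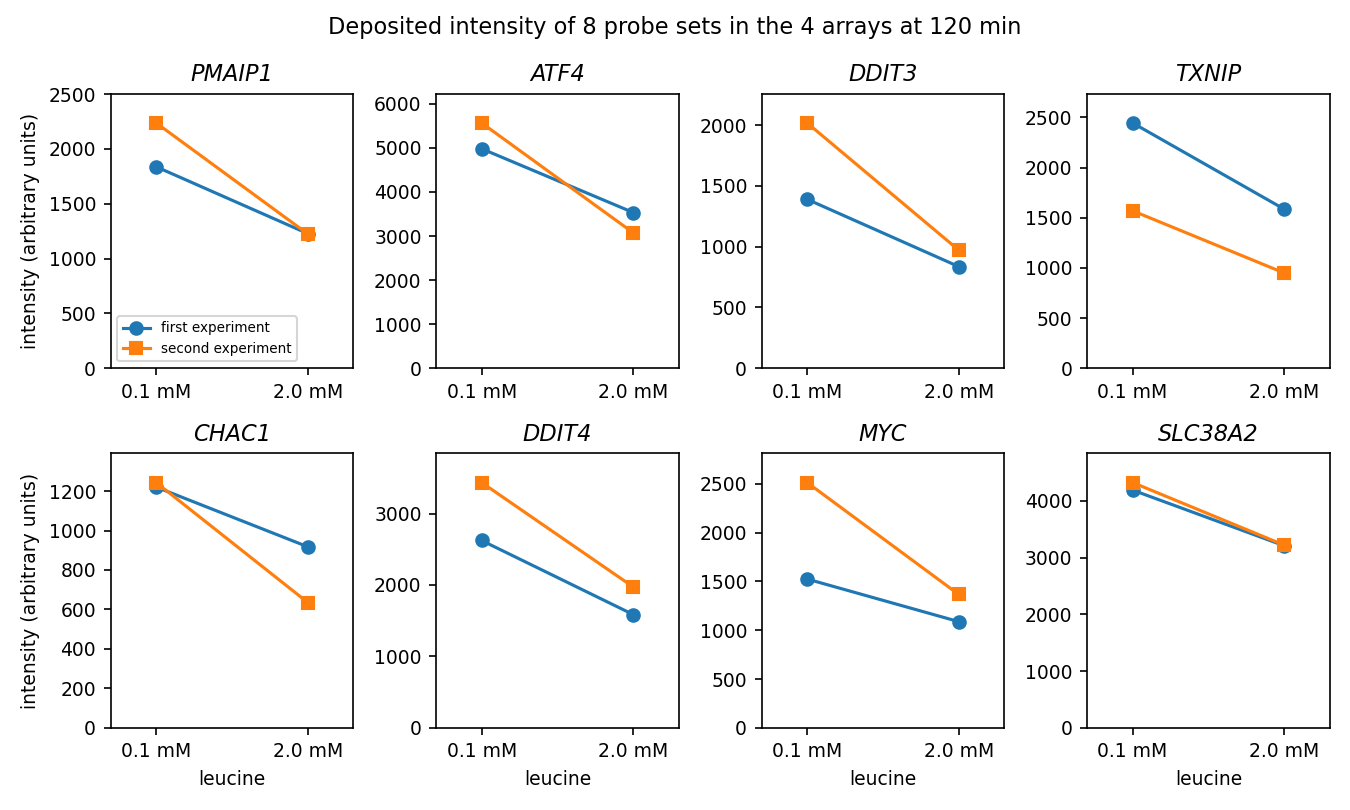
Deposited intensity (arbitrary units, axes from 0) of 8 probe sets in 0.1 mM and 2.0 mM leucine at 120 min, with a line joining the 2 arrays of each experiment. Every line goes down, as for ATF4 from 4980 to 3532 in the first and from 5565 to 3072 in the second experiment; PMAIP1, ATF4, DDIT3 and TXNIP passed the test over all arrays and CHAC1, DDIT4, MYC and SLC38A2 did not.

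The fit with a block for each experiment and time takes out what the 2 media of an experiment share at a given time. Beside the 4 called probe sets it called the second probe sets of PMAIP1 and TXNIP and DDIT4, KLF10, CXCL8, MYC, PPP1R15A, ZZZ3, PTX3, GADD45A, CHAC1 and IFRD1 (2 probe sets), with adjusted p from 0.010 to 0.047, and 1 probe set without a symbol of its own. These genes did not pass in the fit with 1 term per experiment, where their adjusted p ran from 0.14 to 0.997. The difference is the same in both fits and only the error changed. For KLF10, an early growth factor response gene, intensity at 120 min was 577 in low and 364 in high leucine in the first experiment and 2253 and 1269 in the second. Its difference was -0.57 with a standard error of 0.32 under 1 term per experiment and 0.08 under a block by time. At 0 min KLF10 already stood at -0.28 and -0.27 in the 2 experiments.

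A rule without a test, a difference beyond 0.3 in the same direction in both experiments, gave 25 probe sets lower (0.188%) and 0 higher. At the other times these counts were 76 lower and 6 higher at 0 min, 3 and 0 at 30 min, 3 and 0 at 60 min, and 87 and 120 at 480 min. In single experiments 133 probe sets lay below -0.3 and 52 above 0.3 in the first, and 147 and 44 in the second, with 10 beyond 0.3 in opposite directions. The lower side was thus longer than the higher side at 120 min in each experiment. The 25 probe sets belong to 20 genes plus 3 probe sets without a single symbol. Of these genes 7 are on the amino acid response list, 4 on the immediate early gene list and 1 on the NF-kB list. Those lists, chosen with earlier results of these data known, held 35, 37 and 30 of the 8280 genes tested. Of the 25 probe sets 9 were also below -0.3 in both experiments at 480 min and 2 at 0 min. The 2 at 0 min were the dimmer probe set of PMAIP1 and the brighter one of IFRD1.

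**Figure D2:**
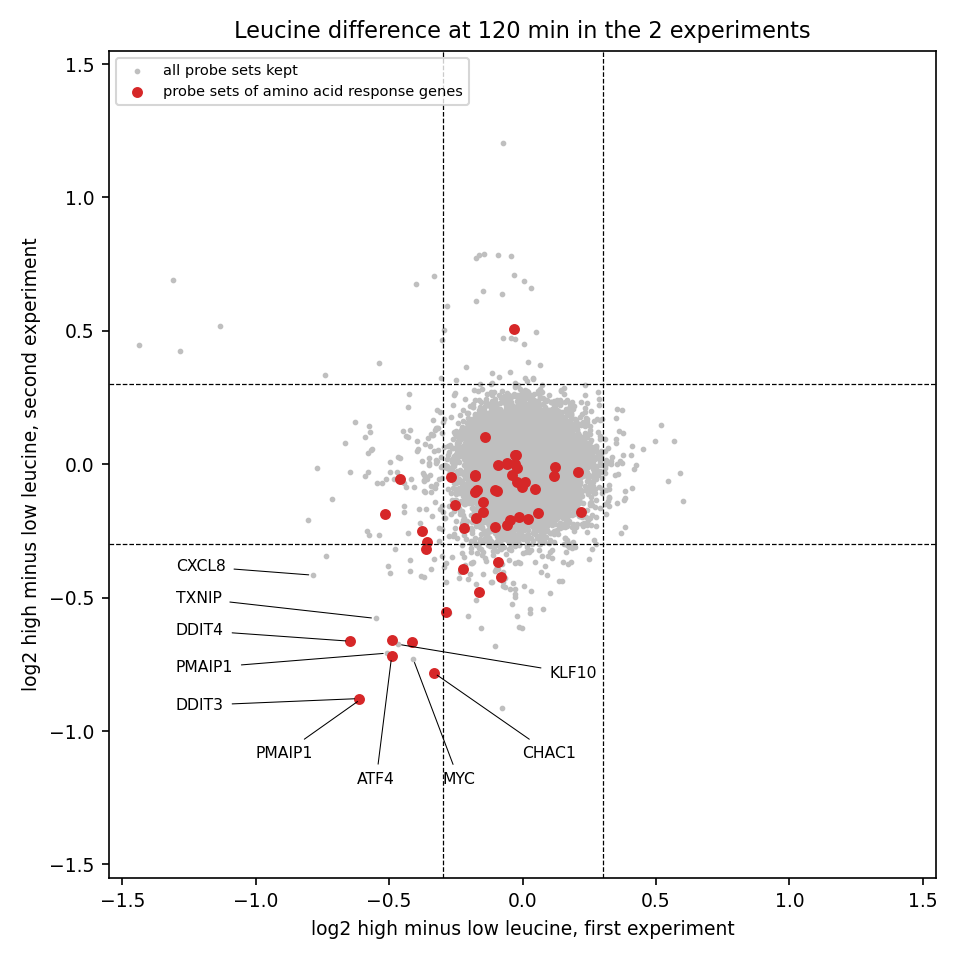
Log2 difference of high minus low leucine at 120 min in the first (horizontal) and second (vertical) experiment for the 13329 probe sets kept; red marks probe sets of amino acid response genes and dashed lines stand at -0.3 and 0.3. The lower left corner holds 25 probe sets and the upper right corner 0, and labelled points include DDIT3 at -0.61 and -0.88 and ATF4 at -0.49 and -0.72.

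Over the amino acid response list, chosen with earlier results of these data known, 35 of 40 genes were measured and 2 were called lower, ATF4 and DDIT3. Of all genes tested 0.0362% were called lower. In both experiments 26 of 35 (74.3%) were lower and 0 were higher, against 22.9% and 27.7% of all genes tested. At an unadjusted p under 0.05, 12 were lower (34.3%) and 0 higher, against 2.33% and 2.02% of all genes. Both high-leucine arrays lay below both low-leucine arrays for 12 genes (34.3%), against 8.38% of all genes. The list's median difference was -0.16 (first experiment -0.15, second -0.18), while the median of all genes was 0.01. The members are described by role.

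Among the 8 measured regulators 7 were lower in both experiments, with a median of -0.27. Beside ATF4 and DDIT3, TRIB3, a pseudokinase that restrains ATF4 and DDIT3, read 2507 in low and 2070 in high leucine in the first experiment and 4094 and 2884 in the second, a difference of -0.31 ± 0.11 (adjusted p = 0.997). ATF3, a stress-induced bZIP repressor, read 588 and 443 in the first and 1240 and 768 in the second experiment, with differences of -0.29 and -0.55. CEBPG, a bZIP protein that pairs with ATF4, stood at -0.09 and -0.37. TRIB3, ATF3 and CEBPG did not pass the test, and within each experiment all were lower in high leucine.

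Among the 7 stress and feedback effectors 6 were lower in both experiments, with a median of -0.32, the lowest of the 5 role groups. That rank came from the second experiment, where their median was -0.48. In the first experiment their median was -0.17, against -0.25 for regulators and -0.27 for secreted factors and receptors. CHAC1, which degrades glutathione, read 1220 in low and 918 in high leucine in the first experiment and 1243 and 635 in the second. The arrays did not overlap, and the difference of -0.56 ± 0.11 had an adjusted p of 0.19 with 1 term per experiment and 0.046 with a block by time. DDIT4 (REDD1), an inhibitor of mTORC1, read 2623 and 1586 in the first and 3435 and 1972 in the second experiment. Its differences of -0.65 and -0.66 were nearly the same in the 2 experiments, yet the error of ± 0.19 left an adjusted p of 0.997 (0.026 with a block by time). GADD45A, a growth arrest gene, went from 1150 to 806 and from 2697 to 1529, or -0.41 and -0.67. PPP1R15A (GADD34) directs a phosphatase to eIF2 and so ends the translational block. Its dimmer probe set went from 846 to 547 and from 1973 to 1120, or -0.49 and -0.66, and its brighter one gave -0.16 and -0.48.

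Of 7 transporters 5 were lower in both experiments, with a median of -0.16, and 4 had an unadjusted p under 0.05. SLC38A2 (SNAT2), a sodium-coupled carrier of small neutral amino acids, read 4104 in low and 3083 in high leucine in the first experiment and 4190 and 3254 in the second. The 4 arrays were well separated, and the difference of -0.31 ± 0.07 had an adjusted p of 0.60, and of 0.050 with a block by time, which missed the threshold. A second SLC38A2 probe set gave -0.36 and -0.32. SLC7A11, the cystine and glutamate exchanger, stood at -0.36 and -0.29, and SLC3A2, the heavy chain it shares with the leucine carrier, at -0.25 and -0.15. SLC7A5 (LAT1), which carries leucine itself, did not share this direction. It read 2026 and 1966 in the first experiment and 4556 and 6190 in the second, a difference of -0.03 and 0.51.

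Of 9 measured enzymes 5 were lower in both experiments and 0 had an unadjusted p under 0.05, with a median of -0.04. ASNS, asparagine synthetase, read 1710 and 1623 in the first and 2121 and 1710 in the second experiment, a difference of -0.13 ± 0.11. PHGDH, the first enzyme of serine synthesis, stood at -0.18 and -0.04, and SHMT2, the mitochondrial serine hydroxymethyltransferase, at -0.17 and -0.20. Of the 4 secreted factors and receptors, 3 were lower in both experiments, with a median of -0.25. STC2, a secreted glycoprotein, read 738 and 456 in the first and 1140 and 941 in the second experiment, and VEGFA, the angiogenic factor, gave -0.46 and -0.06.

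**Figure D3:**
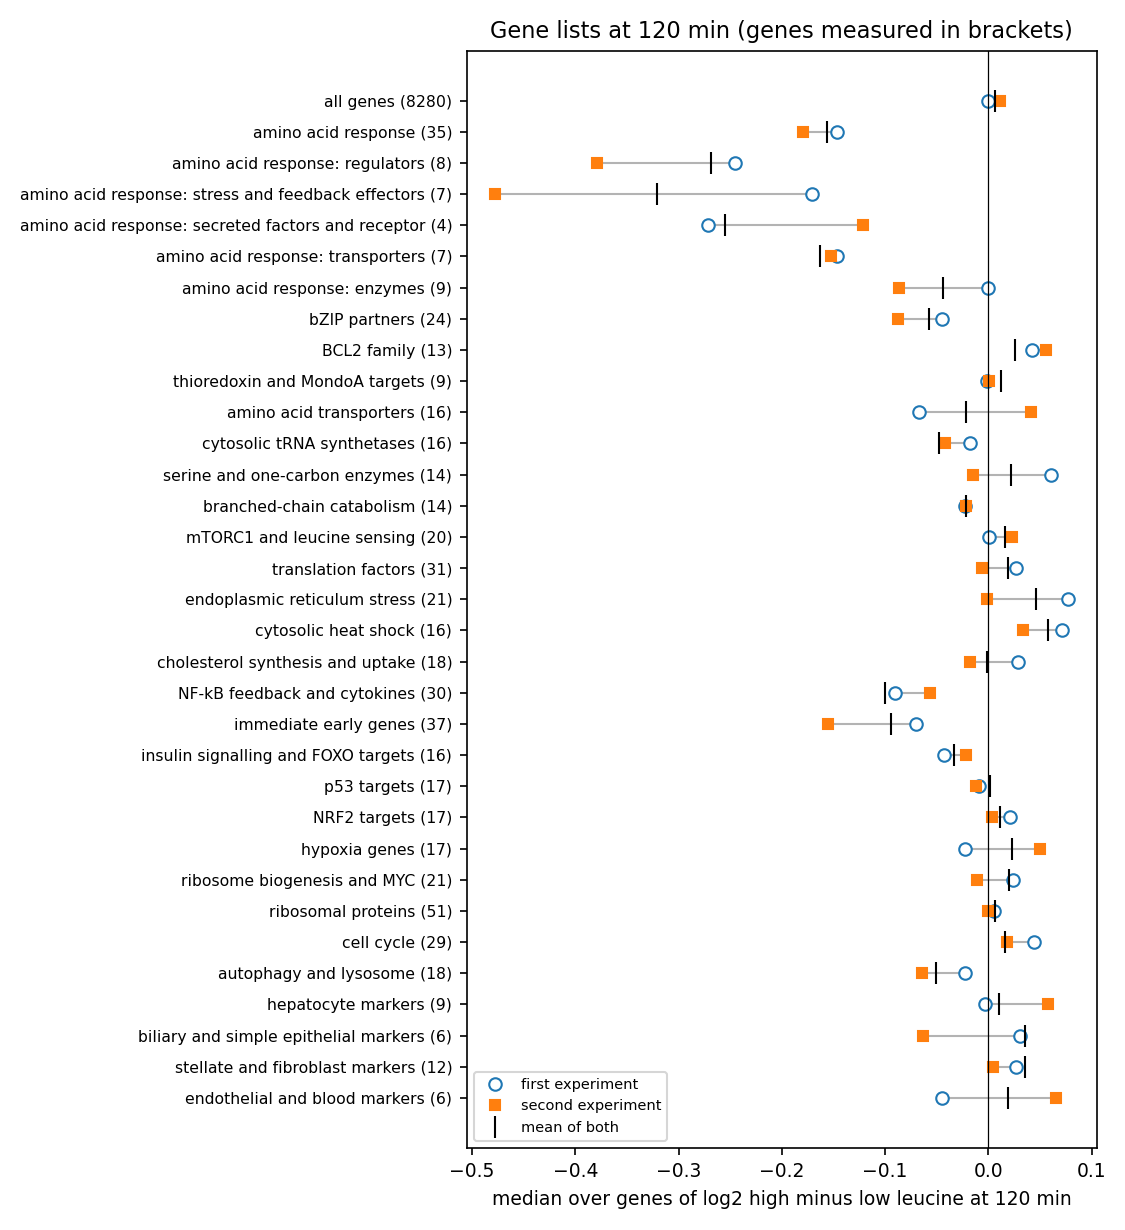
Median log2 difference of high minus low leucine at 120 min over the measured genes of each list, by experiment (circle first, square second, bar the median of the means), with the amino acid response list also by role. The amino acid response lies at -0.16, its stress and feedback effectors at -0.32 and its enzymes at -0.04, while all genes lie at 0.01.

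The promoters of some of these genes are shown because their differences appeared at different times. RefSeq windows of GRCh38.p14, from 250 bases before to 50 after a transcription start, were searched on both strands for TGATGNAA (the core of the C/EBP-ATF response element), TGACGTCA (the cyclic AMP response element, CRE) and CACGTG (the E-box). Of 27305 genes with a window, 4.46% held the first in any window, 2.25% the second and 8.77% the third. Of the 20 genes below -0.3 in both experiments, 17 had a window, and 2, 3 and 3 of these held the motifs. Of the 40 amino acid response genes 31 had a window, and 11, 1 and 4 held them. Capitals mark matches, which describe letters and not bound sites. Windows with a match are shown for CHAC1 (chr15:40953221-40953520, + strand), PPP1R15A (chr19:48872171-48872470, + strand), IFRD1 (chr7:112450258-112450557, + strand) and ATF4 (chr22:39520309-39520608, + strand), genes below -0.3 in both experiments at 120 min. Those of CEBPG (chr19:33373863-33374162, + strand), CARS1 (chr11:3057374-3057673, - strand) and ASNS (chr7:97872359-97872658, - strand) stand for genes that were lower chiefly at 480 min. IFRD1, however, already stood at -0.55 and -0.35 at 0 min with its brighter probe set, and at -0.17 and -0.29 with a dimmer one.
CHAC1: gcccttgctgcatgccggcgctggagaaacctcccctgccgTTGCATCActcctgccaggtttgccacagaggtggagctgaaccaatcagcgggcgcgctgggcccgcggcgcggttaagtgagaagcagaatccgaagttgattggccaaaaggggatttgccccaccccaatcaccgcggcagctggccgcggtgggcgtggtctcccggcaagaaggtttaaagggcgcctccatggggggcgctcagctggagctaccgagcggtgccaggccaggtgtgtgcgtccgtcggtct
PPP1R15A: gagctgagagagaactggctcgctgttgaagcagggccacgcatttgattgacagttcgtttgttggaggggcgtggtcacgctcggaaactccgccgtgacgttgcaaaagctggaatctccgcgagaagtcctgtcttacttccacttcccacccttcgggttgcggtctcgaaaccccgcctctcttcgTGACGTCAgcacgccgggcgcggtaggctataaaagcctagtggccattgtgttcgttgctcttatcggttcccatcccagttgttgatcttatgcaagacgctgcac
IFRD1: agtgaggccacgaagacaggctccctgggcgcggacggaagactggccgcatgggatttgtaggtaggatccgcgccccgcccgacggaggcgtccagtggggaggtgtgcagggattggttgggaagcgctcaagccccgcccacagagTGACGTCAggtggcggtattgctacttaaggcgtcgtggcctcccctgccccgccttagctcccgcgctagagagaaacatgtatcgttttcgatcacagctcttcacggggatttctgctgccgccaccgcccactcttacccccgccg
ATF4: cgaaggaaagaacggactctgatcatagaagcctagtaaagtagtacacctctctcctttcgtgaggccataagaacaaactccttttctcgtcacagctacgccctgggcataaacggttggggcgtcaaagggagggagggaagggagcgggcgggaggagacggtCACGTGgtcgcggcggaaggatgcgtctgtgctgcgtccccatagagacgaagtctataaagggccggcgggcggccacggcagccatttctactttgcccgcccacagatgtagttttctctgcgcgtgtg
CEBPG: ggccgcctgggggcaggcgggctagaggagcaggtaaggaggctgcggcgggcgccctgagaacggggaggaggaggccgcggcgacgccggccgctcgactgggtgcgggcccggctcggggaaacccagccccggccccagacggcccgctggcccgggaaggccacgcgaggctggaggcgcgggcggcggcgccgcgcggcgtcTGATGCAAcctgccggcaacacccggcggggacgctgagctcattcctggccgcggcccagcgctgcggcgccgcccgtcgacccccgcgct
CARS1: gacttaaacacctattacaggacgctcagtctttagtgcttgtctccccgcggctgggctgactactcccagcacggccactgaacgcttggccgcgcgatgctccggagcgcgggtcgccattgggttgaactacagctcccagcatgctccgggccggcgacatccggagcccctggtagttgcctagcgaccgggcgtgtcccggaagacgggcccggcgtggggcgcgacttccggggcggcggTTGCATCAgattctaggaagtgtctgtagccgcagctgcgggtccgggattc
ASNS: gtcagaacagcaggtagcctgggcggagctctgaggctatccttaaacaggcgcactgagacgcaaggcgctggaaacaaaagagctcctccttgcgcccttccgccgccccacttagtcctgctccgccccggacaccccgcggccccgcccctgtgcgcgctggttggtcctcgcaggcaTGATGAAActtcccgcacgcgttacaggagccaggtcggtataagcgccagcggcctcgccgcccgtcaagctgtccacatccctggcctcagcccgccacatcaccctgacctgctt

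In the CHAC1 window the response element core ran from base -209 to base -202 relative to the start, in reverse orientation, written TTGCATCA in the direction of the gene. The CARS1 window had the same letters over the start itself, from base -2 to base 6, and the CEBPG window had TGATGCAA from base -42 to base -35. In the ASNS window TGATGAAA ran from base -68 to base -61. The PPP1R15A window held the CRE from base -58 to base -51, and the IFRD1 window shown from base -100 to base -93. Other windows of IFRD1 held the CRE from base -52 to base -45 and TGATGAAA from base 19 to base 26. None of the 3 motifs was found in the windows given for PMAIP1, DDIT3, TXNIP, DDIT4 or TRIB3.

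The mean leucine difference of ATF4, DDIT3, PMAIP1 and CHAC1 was larger at 120 than at 60 min, a step that was not called in a test of its own. For ATF4 the mean difference was -0.01 at 0 min, -0.08 at 30 min, -0.23 at 60 min, -0.61 at 120 min and -1.05 at 480 min. ATF4 intensity in high leucine went from 4625 at 0 min through 4967, 4518 and 3532 to 2613 at 480 min in the first experiment, and from 4831 through 4649, 4199 and 3072 to 2188 in the second. In low leucine it stayed between 4980 and 5381 in the first and between 4671 and 5565 in the second. Most of the difference was thus a lower level in high leucine. DDIT3 did likewise, with 1172 at 60 min and 836 at 120 min in high leucine in the first experiment and 1604 and 971 in the second. PMAIP1 went from 1716 to 1228 and from 2046 to 1224 over the same step, and CHAC1 from 1126 to 918 and from 1065 to 635.

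Tested as a change of the leucine difference, the step from 60 to 120 min called 0 probe sets by limma (715 at an unadjusted p under 0.05, smallest adjusted p 0.79). From 0 to 120 min it called 1 (0.00750%), EIF4E, the cap-binding initiation factor. EIF4E (1 probe set of the gene) was lower in high leucine at 0 min, by a mean of -0.55, and stood at 0.25 and 0.14 at 120 min, a change of 0.75 ± 0.08. For ATF4 and PMAIP1 the change from 0 min had an adjusted p of 0.091, and for DDIT3 0.11. At 0 min itself 77 probe sets were called between the 2 media, 66 lower and 11 higher in high leucine, and at 30 and 60 min 0 were called.

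The genes whose difference changed after 120 min included genes of tRNA charging, amino acid transport and serine and one-carbon metabolism on the lower side and of cholesterol synthesis on the higher side. The step called 31 probe sets (0.233%), 19 downwards and 12 upwards. CARS1, the cysteinyl-tRNA synthetase, read 3344 in low and 3134 in high leucine at 120 min in the first experiment and 3895 and 3536 in the second, and its difference went from -0.06 at 120 min to -0.77 at 480 min (change -0.70 ± 0.08, adjusted p = 0.0017). The other synthetase genes called, SARS1, AARS1 and TARS1, stood at 0.08 and -0.09, at 0.03 and -0.07, and at 0.05 and -0.18 in the 2 experiments at 120 min, and their mean differences at 480 min were -0.74, -0.56 and -0.65. PSAT1 of serine synthesis went from -0.02 to -0.60 and MTHFD2 of mitochondrial one-carbon metabolism from -0.04 to -0.92. The change also passed for SLC7A11, TRIB3 and STC2 (-0.99, -0.94 and -0.93), which were already at -0.33, -0.31 and -0.35 at 120 min. A second probe set of SLC7A11 and 1 of STC2 stood at only -0.23 and -0.14 at 120 min. Their changes of -0.99 and -0.73 passed as well. So did that of SLC7A1, a cationic amino acid transporter (-0.16 to -0.86).

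The step from 120 to 480 min was not called for ATF4, DDIT3, PMAIP1 or TXNIP, which passed at 120 min, nor for CHAC1, which did not. PMAIP1 went from -0.61 to -0.50, DDIT3 from -0.75 to -0.87, the called TXNIP probe set from -0.56 to -0.66 and CHAC1 from -0.56 to -0.62, and ATF4 went from -0.61 to -1.05 (change -0.45 ± 0.10, adjusted p = 0.091). Over the role groups the median at 480 min was -0.91 for secreted factors and receptors and -0.82 for regulators. It was -0.50 for stress and feedback effectors, -0.40 for transporters and -0.39 for enzymes. At 120 min the enzymes had a median of -0.04 and the transporters -0.16. The 16 measured cytosolic tRNA synthetases had a median of -0.05 at 120 min with 0 called and 0 at an unadjusted p under 0.05, and of -0.31 at 480 min with 9 called lower and 1 higher, against 1.70% and 2.33% of all genes.

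**Figure D4:**
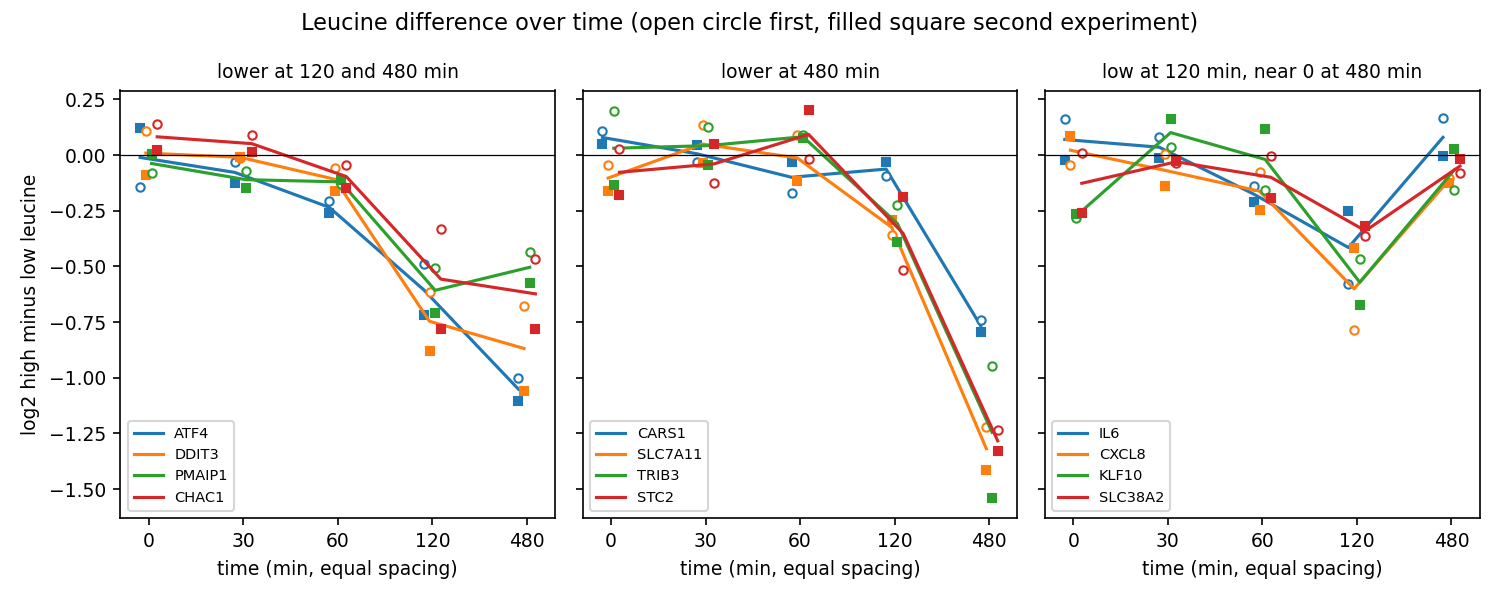
Log2 difference of high minus low leucine by time (min, equally spaced) for 12 genes, with the mean as a line, the first experiment as open circles and the second as filled squares. ATF4, DDIT3, PMAIP1 and CHAC1 are low at 120 min and at 480 min, CARS1, SLC7A11, TRIB3 and STC2 drop mainly after 120 min, and IL6, CXCL8, KLF10 and SLC38A2 lie nearer 0 at 480 min than at 120 min.

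DNAJB9 (ERdj4), a co-chaperone of the endoplasmic reticulum, stood the other way at 120 min. It read 1275 in low and 1646 in high leucine in the first experiment and 1481 and 1643 in the second, a difference of 0.35 and 0.21 (0.28 ± 0.12, adjusted p = 0.997). At 480 min its difference was -0.75, and the change of -1.03 ± 0.16 passed the test (adjusted p = 0.013). RAB2A, a GTPase of the secretory pathway, likewise stood at 0.29 and 0.22 at 120 min and at -0.20 at 480 min. The upward changes included IDI1 and MSMO1 of cholesterol synthesis, at -0.08 and -0.02 at 120 min and 0.64 and 0.68 at 480 min, and the small heat shock protein gene HSPB1, at 0.17 and 0.87.

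Of 141 genes called lower at 480 min (1.70% of genes tested), 83 (58.9%) were lower in both experiments at 120 min, 12 were higher in both and 46 differed in sign. For all genes 22.9% were lower in both. Of the 141, 32 (22.7%) had an unadjusted p under 0.05 and were lower at 120 min, and 3 were called. Of 193 genes called higher at 480 min, 67 (34.7%) were higher in both experiments at 120 min, where 27.7% of all genes were, and 48 were lower in both. The arrays at 120 and 480 min are separate, but the experiments are the same.

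Early and cytokine genes were a further group with lower values at 120 min. Of 37 measured immediate early genes 20 (54.1%) were lower in both experiments and 4 (10.8%) higher, against 22.9% and 27.7% of all genes, with a median of -0.09, and 0 were called. Of 30 measured NF-kB feedback and cytokine genes 19 (63.3%) were lower in both and 3 higher, with a median of -0.10, 5 lower at an unadjusted p under 0.05 and 0 called. At 480 min the medians of the 2 lists were 0.01 and -0.05. MYC, the growth-promoting transcription factor, read 1524 in low and 1088 in high leucine in the first experiment and 2513 and 1366 in the second, a difference of -0.57 ± 0.15 (adjusted p = 0.91).

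CXCL8, the neutrophil chemokine interleukin 8, read 1927 and 1037 in the first experiment and 485 and 328 in the second with its brighter probe set, a difference of -0.79 and -0.42. Its other probe set read 931 and 464 in the first but 221 and 222 in the second, so that it was lower in the first experiment alone. IL6 read 752 and 437 in the first and 589 and 471 in the second experiment, and PTX3, a secreted pattern recognition protein, 1067 and 838, and 1003 and 612. The differences of IL6 were -0.58 and -0.25 at 120 min with a mean of 0.08 at 480 min, and those of PTX3 -0.28 and -0.56 with -0.14 at 480 min. At 0 min PTX3 already stood at -0.32 and -0.24, and IL6 at 0.16 and -0.02. The change from 120 to 480 min did not pass the test for either gene (adjusted p = 0.22 and 0.58).

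The early genes also followed the experiment. In low leucine KLF10 read 607 at 0 min and 577 at 120 min in the first experiment, but 726 and 2253 in the second. ATF3 went from 853 at 0 min to 1586 at 60 min in the second experiment and from 519 to 563 in the first, and the dimmer PPP1R15A probe set from 1026 to 1973 at 120 min in the second and from 683 to 846 in the first. GADD45A and MYC in low leucine went from 1427 to 2697 and from 1296 to 2513 between 0 and 120 min in the second experiment, and from 947 to 1150 and from 1555 to 1524 in the first. The high-leucine arrays of the second experiment were likewise higher at 60 min than at 0 min, as with KLF10 at 1624 against 566, and differed from low leucine at 120 min. DDIT4 in the second experiment went from 4372 at 60 min to 1972 at 120 min in high leucine, against 3503 and 3435 in low leucine.

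No gene was called higher at 120 min. The 12 genes with the largest agreeing higher values were ACADS, CD1C, PREPL, ID4, DNAJB9, P2RX1, APOA1, OPRPN, FOXP3, GFOD1, PIK3R3 and ATXN8OS, with the smaller of the 2 experiment differences from 0.18 to 0.24 and adjusted p from 0.989 to 0.997. ACADS, the short-chain acyl-CoA dehydrogenase of mitochondria, read 1074 in low and 1331 in high leucine in the first experiment and 1164 and 1351 in the second, without overlap. Both high-leucine arrays lay above both low-leucine arrays for 744 of the 8280 genes tested. Several of the others, such as CD1C, FOXP3 and OPRPN, are known from lymphoid or glandular cells and had intensities between 430 and 868 in the 4 arrays. Among 16 cytosolic heat shock genes 10 (62.5%) were higher in both experiments and 1 (6.25%) lower, against 27.7% and 22.9% of all genes, with a median of 0.06. At 480 min their median was 0.21 and 6 were called higher, where 2.33% of all genes were.

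The lists of branched-chain catabolism and of mTORC1 and leucine sensing had medians of -0.02 and 0.02 at 120 min. The branched-chain aminotransferases BCAT1 and BCAT2, which start leucine breakdown, gave differences of 0.05 ± 0.08 and 0.02 ± 0.07. Of 14 measured genes of branched-chain catabolism 4 (28.6%) were lower in both experiments and 2 (14.3%) higher. By mean difference they ran from AUH, at -0.18 and -0.20 by experiment, to MCCC2, at 0.10 and 0.10. Of 20 genes of mTORC1 and leucine sensing 2 (10%) were lower and 3 (15%) higher, with 0 called on either list. Over all genes the shares were 22.9% lower and 27.7% higher, and 3 of 8280 (0.0362%) were called. The 51 measured ribosomal protein genes had a median of 0.01 and the 31 translation factor genes 0.02. Of 13 measured BCL2 family genes PMAIP1 was the one called, and the median of the list was 0.03. Of 17 measured p53 targets PMAIP1 was again the one called, and the median was 0.00. In both experiments 7 (41.2%) were lower and 3 (17.6%) higher, against 22.9% and 27.7% of all genes.

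The 2 experiments did not give the same picture over all probe sets at 120 min. The sign of the difference was the same in both for 50.3% of probe sets, against 63.3% at 480 min, and the correlation of the differences over probe sets, a description since probe sets are not independent, was 0.04 at 120 min and 0.51 at 480 min. A test of the difference between experiments called 0 probe sets by limma (912 at an unadjusted p under 0.05, smallest adjusted p 0.094), with the residual spread of the other times. Among the probe sets with the smallest p, named after their values were seen, KLF4, a transcription factor of epithelial differentiation, read 684 in low and 409 in high leucine in the first experiment and 1097 and 1420 in the second. NR3C1, the glucocorticoid receptor gene, gave -0.15 and 0.65, -0.21 and 0.36, -0.25 and 0.31 and -0.09 and 0.07 with its 4 probe sets. TSC22D1, a leucine zipper gene, stood at -0.40 and 0.68, and TIPARP, a target of the aryl hydrocarbon receptor, at -0.15 and 0.79. Probe sets of MBD5, MBP, ALDH1A3, KLF9 and TFAP2A also ranked there. CYP1B1, a cytochrome P450 under the aryl hydrocarbon receptor, was not among them. It was picked to stand beside TIPARP after its values were seen, and a common cause of the 2 was not tested. The brightest CYP1B1 probe set read 1073 in low and 917 in high leucine in the first experiment but 2629 and 4362 in the second. The next ones gave -0.33 and 0.71 and -0.04 and 0.78.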

How the data were processed

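RNA of THLE-3 cells in 2 media at 5 times was measured on 20 arrays, 2 per group. The deposited values are linear probe set intensity values per the file's columns. The sources used here do not give how the authors summarised and scaled them. Precision is limited by the number of arrays.

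A pseudocount of 165.2, which is each array's 10th percentile in the median, was added before log2 and quantile normalization followed. The 40% of probe sets with the lowest mean were left out, and 13329 of 22215 stayed. Of all probe sets 19065 had 1 symbol in the platform annotation, 1043 several and 2107 none, and those with 1 symbol were named. Per gene, the probe set with the highest mean was taken, for 8280 genes.

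With limma 3.58.1 in R 4.3.3, all 20 arrays were fitted with 1 mean per group, a term for the experiment (9 residual degrees of freedom) and an intensity trend, two-sided, with Benjamini-Hochberg adjustment over all probe sets kept and a threshold of 0.05. The experiment pairs the arrays: deviations of arrays of the same experiment from their group means correlated at 0.81 or more (median 0.87). The fit was tested on simulated data with known changes. The simulated errors were independent around 1 term per experiment, so that test does not cover shifts of an experiment at single times. Alternatives were another pseudocount, scaling, filter or variance model, no replicate block, a block by time, fewer arrays, 1 probe set per gene, and leaving out each array.

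Named genes were those called, the 12 highest and 12 lowest agreeing in both experiments by the smaller difference, up to 4 per list by p, and a fixed set of 16 genes. SESN2 and ARRDC4 of that set were not analysed here, as no probe set carried their symbol alone. Genes named through the block by time, at 480 min, or for disagreement were chosen after their values were seen. The members and the 27 lists were chosen with earlier results of these data known.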

Additional observations from a re-analysis of the deposited data

Results flagged for a closer look

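The leucine difference itself differed between times for a number of probe sets, by a test of the change of the difference in limma. Between 0 and 120 min 1 probe set passed, that of EIF4E. Between 120 and 480 min 31 passed.

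Among the genes named at 120 min, the difference went down by 480 min for DNAJB9 (-1.03), SLC7A11 (-0.99), TRIB3 (-0.94), STC2 (-0.93), CARS1 (-0.70) and SLC7A1 (-0.69), and up for HSPB1 (0.69). Of these, DNAJB9 was higher in high leucine in both experiments at 120 min and lower in both at 480 min. Another DNAJB9 probe set, with a signal under the filter, gave 0.21 and -0.07 at 120 min and -0.37 and -0.51 at 480 min. Groups of 2 arrays are too small for a test of single arrays that stand apart.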

How the results depend on the processing

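In 34 other settings the differences of PMAIP1, ATF4, DDIT3, TXNIP and CHAC1 kept their sign wherever they were fitted. PMAIP1 passed in 18 of 20 settings that left out 1 array and in 14 of 14 others, ATF4 in 18 and 13, DDIT3 in 17 and 13, TXNIP in 17 and in 12 of 13, and CHAC1 in 1 and 2. The 4 probe sets called at 120 min became 1 without the replicate block, 18 with a replicate block by time and 58, 56 of them lower, with a replicate block on the 120 min arrays alone, which leaves 1 residual degree of freedom; leaving out 1 array gave 0 to 9.

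The 1 probe set for 120 against 0 min became 0 with a filter at the 60th percentile, without the replicate block or with 1 probe set per gene, and 2 without the 480 min arrays; leaving out 1 array gave 1 to 9, with 9 without the second high-leucine array at 0 min and 3 without the first or without the first high-leucine array at 120 min. The 31 for 480 against 120 min became 0 without the replicate block and 99 with a block by time. Leaving out 1 array gave 7 to 75, with 7 and 9 without the first or second low-leucine array at 120 min, 16 without the first low-leucine array at 480 min or the second high-leucine array at 120 min, 12 without the second high-leucine array at 480 min and 75 without the first. The 0 for a difference between experiments became 6 under array weights, 1 when the 480 min arrays were left out, and 0 to 1 with 1 array left out. The step from 60 to 120 min called 0 in every setting run.

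The 25 probe sets below -0.3 in both experiments were 9 with a pseudocount 4 times larger, 15 with 1 probe set per gene, 22 with the 60th percentile filter, 36 on the values as deposited, 35 with a pseudocount 4 times smaller, 33 with median centring and 25 to 26 with 1 array left out, and none lay above 0.3 in both in any of these. The median of the amino acid response was -0.21 on the values as deposited and -0.20 with median centring, and that of NF-kB feedback and cytokines -0.066 with the larger pseudocount and -0.12 with the 60th percentile filter. The settings for these medians, other than scaling, and for the 25 probe sets were added after seeing the data. The cause of these moves was not tested. On the deposited scale the median difference of all probe sets was -0.013 in the first and -0.020 in the second experiment.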

Other observations

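Of 29 measured cell cycle genes 6 (20.7%) were lower and 10 (34.5%) higher in both experiments at 120 min, near the 22.9% and 27.7% of all genes, and 0 were called. CDT1, a licensing factor of DNA replication, read 1044 in low and 800 in high leucine in the first experiment and 704 and 516 in the second, a difference of -0.32 ± 0.11, with -0.03 at 480 min. CCNA2, the cyclin of S phase and mitosis, read 1039 and 1351 in the first and 863 and 967 in the second experiment, a difference of 0.26 ± 0.08, and at 480 min its difference of 0.48 passed (limma adjusted p = 0.0037). A second CCNA2 probe set gave -0.02 and -0.01 at 120 min. Of 18 measured genes of autophagy and the lysosome 9 were lower in both experiments, against 22.9% of all genes, and 3 (16.7%) higher, and 0 were called. SQSTM1, the autophagy receptor p62, read 4534 and 4065 in the first and 4718 and 3600 in the second experiment, and at 480 min it passed at -0.34 (adjusted p = 0.018). A dimmer SQSTM1 probe set gave 0.09 and 0.08 at 120 min. XBP1, which drives genes of the unfolded protein response, stood at -0.25 ± 0.08 at 120 min and passed at -0.64 at 480 min.

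Further genes below -0.3 in both experiments had no place on a list. NAA15, a subunit of an N-terminal acetyltransferase, read 563 in low and 371 in high leucine in the first experiment and 568 and 394 in the second. At 480 min its differences had opposite signs, 0.46 in the first and -0.28 in the second experiment. RCAN1, a regulator of calcineurin, read 631 and 453, and 634 and 444, with differences of 0.10 and -0.51 at 480 min. In both genes the high-leucine arrays lay below the low-leucine arrays at 120 min without overlap, as for 8.38% of all genes.

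A few probe sets differed far more in the first experiment than any of the called genes, and went the other way in the second. They were single probe sets of RECK, at -1.44 and 0.45, of DNAH3, at -1.31 and 0.69, and of SCD5, at -1.28 and 0.42. The DNAH3 probe set read 4154 and 1551 in the first and 1631 and 2569 in the second experiment, while another probe set of DNAH3 gave 0.06 and -0.03.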
